A study of Homo sapiens with 9 samples.

Results

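The 10 genes described here are the glucocorticoid receptor gene *NR3C1* and 9 genes known to respond to glucocorticoids, androgens or both, namely *FKBP5*, *TSC22D3*, *PER1*, *SGK1*, *ZBTB16*, *KLF9*, *ALOX15B*, *AZGP1* and *PIP*. They were selected by symbol, and all 10 were found among the 59452 gene rows of the count table, of which 15528 passed a filter on low counts. *ZBTB16* and *ALOX15B* did not pass, which left 8 for testing. RNA was sequenced in bulk from MDA-MB-453, an unmodified human breast cancer cell line labeled as triple-negative, in 9 libraries from 3 groups of 3 biological replicates. The groups were cells attached to the plate with the vehicle DMSO, cells held in forced suspension with DMSO, and cells held in forced suspension with 10 µM AT-0174, an inhibitor of the tryptophan-degrading enzymes TDO2 and IDO1, each for 48 hours. Forced suspension was obtained by coating plates with poly-HEMA, to which cells do not attach. The medium was DMEM with 10% FBS in all groups, and no steroid is named among the treatments. There was no attached group with AT-0174, so the drug was compared with its vehicle in suspension only, and a single cell line was used.

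Steroid receptors are transcription factors that wait in the cytoplasm bound to chaperones, enter the nucleus when a hormone binds, and attach to DNA elements near their target genes. The receptors for glucocorticoids and for several other steroids recognize nearly the same element and therefore share many targets. In apocrine breast cancers, which often lack the estrogen receptor, secreted proteins such as PIP and AZGP1 serve as markers.

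Library totals ranged from 36649997 to 48019126 estimated counts, so that the limit set by a count of 0 (3 counts) was 0.0625 to 0.0819 CPM (counts scaled to a common library size) and covers counting error only. Of 19 apocrine markers, which include *PIP* and *AZGP1*, 14 were above 1 TPM (a scale per transcript length) in every library, and their summed level was 5090 to 5310 TPM in attached cells, against 6140 to 6160 TPM in suspension with vehicle and 5660 to 6190 TPM with AT-0174. The 5 basal markers summed to at most 4.04 TPM, with only *TP63* above 1 TPM throughout. Of 6 immune and stromal markers, *CD68* and *COL1A1* were above 1 TPM throughout, the sum was 55.2 to 69.4 TPM, and *CD3E* was at 0 in all libraries. Most of that sum was *COL1A1*, with means of 60.2 TPM in attached cells, 54.6 TPM in suspension with vehicle and 53 TPM with AT-0174. *COL1A2* had 0 to 4 counts, *PTPRC* 0 to 2 and *PECAM1* 1 to 7. The estrogen receptor gene *ESR1* had 0 to 4 counts and the progesterone receptor gene *PGR* 5 to 18 counts, whereas *ERBB2*, which encodes HER2, was at 398 to 436 TPM. Protein was not measured. Mitochondrial transcripts made up 7.56% to 9.32% of counts in attached cells and 3.73% to 5.51% in suspended cells. Their part in the results below was not tested, nor was that of the marker levels. In bulk RNA, fewer cells with a transcript and less of it per cell cannot be told apart.

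DNA upstream of the *PIP*, *KLF9* and *AZGP1* start sites is shown because these 3 genes passed the test in at least 1 of the comparisons between neighboring conditions. Each sequence is the 250 bases before a RefSeq transcription start in GRCh38.p14, read 5′ to 3′ on the gene's own strand. Capitals mark AGAACA, which is 1 arm of the element shared by these receptors. The windows are chr7:143131827-143132076 on the plus strand for *PIP*, chr9:70414658-70414907 on the minus strand for *KLF9* and chr7:99976032-99976281 on the minus strand for *AZGP1*.
PIP: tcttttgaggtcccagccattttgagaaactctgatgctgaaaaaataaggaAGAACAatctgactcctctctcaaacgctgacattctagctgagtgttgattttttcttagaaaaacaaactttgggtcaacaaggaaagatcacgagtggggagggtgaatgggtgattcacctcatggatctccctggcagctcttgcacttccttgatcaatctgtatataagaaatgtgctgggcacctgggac
KLF9: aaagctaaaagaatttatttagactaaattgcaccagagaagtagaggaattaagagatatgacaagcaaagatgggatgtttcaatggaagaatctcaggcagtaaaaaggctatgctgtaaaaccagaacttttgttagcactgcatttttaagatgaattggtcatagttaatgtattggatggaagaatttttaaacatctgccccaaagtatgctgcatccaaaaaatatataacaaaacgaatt
AZGP1: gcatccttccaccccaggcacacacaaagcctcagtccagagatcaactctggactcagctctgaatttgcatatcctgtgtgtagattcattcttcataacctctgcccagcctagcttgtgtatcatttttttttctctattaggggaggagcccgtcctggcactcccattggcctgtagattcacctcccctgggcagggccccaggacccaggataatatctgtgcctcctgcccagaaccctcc
RefSeq start sites were matched for 8 of the 10 genes, with 20 windows among them. The receptor gene *NR3C1* and the genes *FKBP5*, *TSC22D3* and *SGK1* had more than 1 window each. A share of windows is therefore not a share of genes. Searched on both strands, AGAACA lay in 1 of the 20 windows, that of *PIP*, with its first base at position -198 from the start, and in 12.4% of all 35116 windows of the same length. The complete palindrome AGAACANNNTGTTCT was in 0 of the 20 windows and in 1 window of all. The forkhead motif TGTTTAC, also searched on both strands, was in 2 of the 20 windows (1 of *NR3C1* and 1 of *TSC22D3*) and in 2.98% of all. TATAAA, searched on the gene's strand, was in 3 of the 20 windows (*NR3C1* at -187, *TSC22D3* at -29 and *SGK1* at -15) and in 6.8% of all. Only these exact letters were searched, so close forms, such as TATATAAG near the end of the printed *PIP* window, were not counted. These letter matches describe the windows only, since many receptor elements lie far from start sites.

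Levels can be set side by side per length in TPM. *AZGP1*, which encodes a secreted zinc-binding glycoprotein involved in lipid mobilization, was highest with 415 to 562 TPM, followed by *TSC22D3* with 110 to 137 TPM and *FKBP5* with 30.1 to 36.6 TPM, and the ranges of these 3 genes did not overlap. *PER1* (12 to 18.2 TPM) and *PIP* (7.87 to 17.4 TPM) came next. In attached cells *PER1* was above *PIP* in every library, whereas in both suspended groups the ranges of the 2 genes overlapped. *NR3C1* followed at 3.90 to 5.92 TPM and *KLF9* at 2.61 to 3.64 TPM, without overlap. *SGK1* had 0.105 to 0.408 TPM, and *ZBTB16* and *ALOX15B* were lower still in each group's mean.

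**Figure D1:**
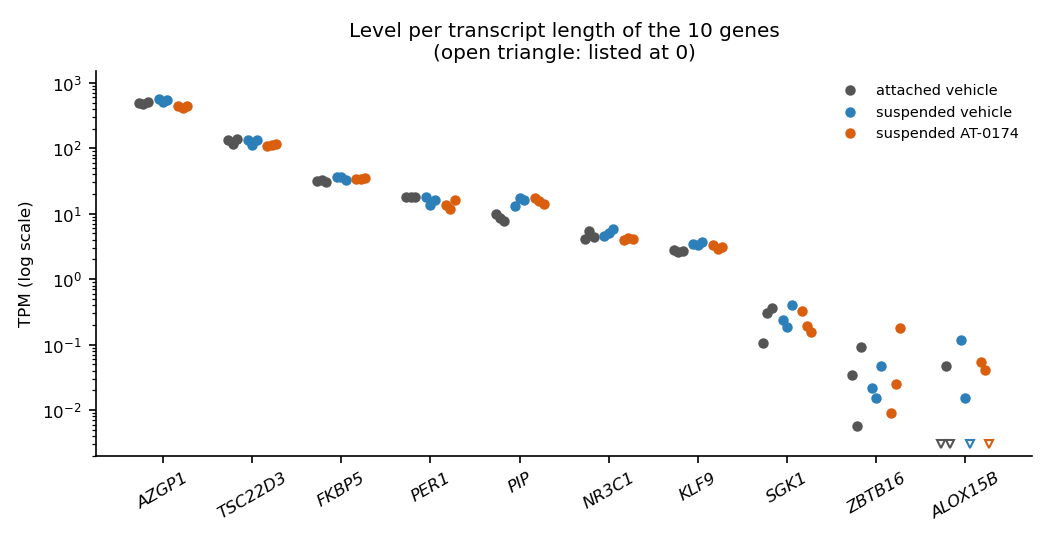
Level of each of the 10 genes per library in TPM on a log axis, by group. *AZGP1* lies at the top with 415 to 562 TPM, and *SGK1*, *ZBTB16* and *ALOX15B* lie under 1 TPM.

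The first comparison, of suspended with attached cells given vehicle, asked how these genes differ between the culture forms. *PIP* rose 1.64-fold and *KLF9* rose 1.19-fold, while the other 6 tested genes did not pass the test. In this comparison 21.2% of all tested genes passed (10.4% higher, 10.8% lower), so 2 of 8 is close to the share among all genes. The median log2 difference of the 8 genes was 0.046, beside 0 for all genes. For *NR3C1*, *KLF9* and *PIP* the 2 groups did not overlap, which held for 38.1% of all genes (19.4% higher, 18.7% lower).

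*NR3C1* (ENSG00000113580, chromosome 5, 143277931 to 143435512, GRCh38) encodes the receptor for cortisol. It was measured at 15.8, 15.6 and 15.8 CPM in attached cells, 16.6, 16.1 and 16.0 CPM in suspension with vehicle, and 14.3, 15.8 and 15.1 CPM with AT-0174. The suspended vehicle libraries were just above all others, but neither step passed the test. The log2 difference of suspended from attached cells was 0.04 (SE = 0.0525, adjusted p = 0.622), with a 95% interval of -0.06 to 0.14. For AT-0174 against vehicle it was -0.11 (SE = 0.052, adjusted p = 0.585), with an interval of -0.21 to -0.01. That interval leaves out 0, but edgeR's quasi-likelihood test gave an unadjusted p of 0.0605. The interval makes no allowance for the few degrees of freedom, so it is somewhat too narrow, and it is not adjusted for the number of genes.

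Transcript estimates for *NR3C1*, made by Salmon's model and not tested, gave ENST00000394464 a mean of 56.5% of the gene's TPM in attached cells, 53% in suspension with vehicle and 68% with AT-0174.

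*FKBP5* (ENSG00000096060, chromosome 6, 35573585 to 35728583) encodes a cochaperone that lowers the hormone affinity of the glucocorticoid receptor and is itself sensitively induced by glucocorticoids and androgens. Its level was 83.0, 84.8 and 81.1 CPM in attached cells, 90.9, 86.6 and 80.2 CPM in suspension with vehicle, and 84.7, 88.4 and 89.0 CPM with AT-0174. The 3 groups overlapped. The log2 difference was 0.05 for suspension (SE = 0.0447, adjusted p = 0.467; interval -0.04 to 0.14) and 0.02 for AT-0174 against vehicle (SE = 0.0443, adjusted p = 0.931; interval -0.06 to 0.11), so both intervals stayed well under a doubling. A single transcript, ENST00000357266, carried 98.9% to 99.1% of the *FKBP5* TPM in group means.

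*TSC22D3* (ENSG00000157514, chromosome X, 107713221 to 107777342) encodes GILZ, an anti-inflammatory protein induced by glucocorticoids. In attached cells it was at 129, 114 and 136 CPM, in suspended cells with vehicle at 115, 105 and 120 CPM, and with AT-0174 at 105, 100 and 108 CPM. Values were lowest with AT-0174, and only the attached and AT-0174 groups did not overlap. The step from attached to suspended cells was -0.16 on the log2 scale (SE = 0.063, adjusted p = 0.0946), and that from vehicle to AT-0174 was -0.12 (SE = 0.0631, adjusted p = 0.616). The first step passed without attached replicate 2 (-0.23, adjusted p = 0.0181), with DESeq2 (adjusted p = 0.0373) and without the filter on low counts (adjusted p = 0.00251).

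Salmon's estimates split *TSC22D3* among 17 transcripts with different start sites, and the 2 with the highest TPM are described first. ENST00000372397, which starts at 107717135, was at 47.7, 41.4 and 50.6 TPM in attached cells, 35.3, 35.5 and 42.6 TPM in suspension with vehicle and 31.9, 33 and 43.2 TPM with AT-0174. The groups overlapped only through attached replicate 2 at 41.4 TPM and the third replicate of each suspended group. ENST00000372383, which starts at 107775787, was at 23.2 to 23.4 TPM in attached cells, 24.7 to 27.9 TPM in suspension with vehicle and 21.0 to 27.3 TPM with AT-0174. In the order attached, suspended vehicle and AT-0174, the means were 46.6, 37.8 and 36.0 TPM for the first transcript and 23.3, 26.3 and 23.1 TPM for the second, without a test. ENST00000503515, which starts near the first at 107717062, had means of 19, 21.6 and 17.3 TPM. ENST00000486554, which starts at 107716401, had means of 18.4, 20.7 and 17.8 TPM. The lower values of the first transcript in suspension with vehicle were thus not shared by these neighbors. How Salmon divides common reads among them was not tested. *NCBP2L* lies across *TSC22D3* on the other strand.

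**Figure D2:**
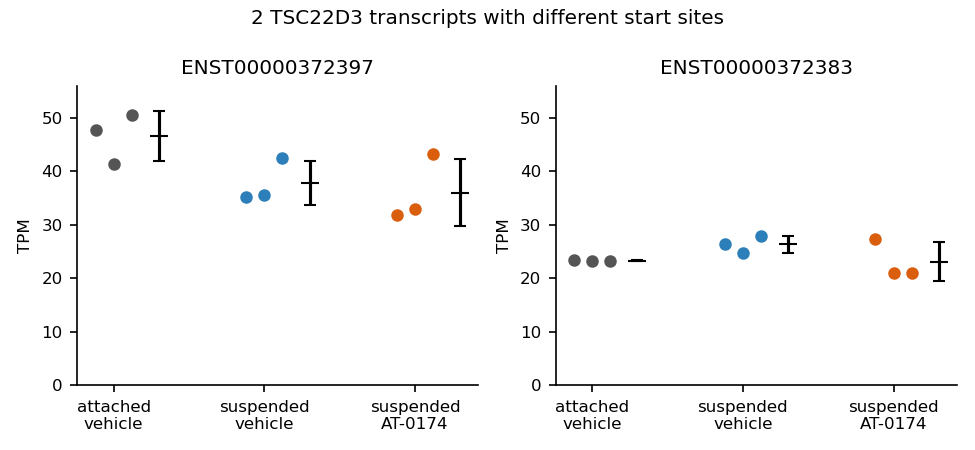
TPM of 2 of the 17 *TSC22D3* transcripts in each library, by group, as assigned by Salmon. ENST00000372397 lies at 41.4 to 50.6 TPM in attached cells and at 31.9 to 43.2 TPM in the 6 suspended libraries, whereas ENST00000372383 lies between 21.0 and 27.9 TPM throughout.

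*PER1* (ENSG00000179094, chromosome 17, 8140472 to 8156506) encodes a repressor of the circadian clock that glucocorticoids induce directly. It was at 29.4, 26.9 and 31.6 CPM in attached cells, 30.4, 26.9 and 26.8 CPM in suspension with vehicle, and 25.3, 25 and 26.5 CPM with AT-0174. The AT-0174 libraries were below all 6 others. Neither the step to suspension (-0.07, SE = 0.0645, adjusted p = 0.512) nor the step to AT-0174 (-0.13, SE = 0.0644, adjusted p = 0.6) passed the test. In Salmon's estimates the coding transcript ENST00000317276 made up a mean of 41.2%, 51.6% and 51.5% of the *PER1* TPM in the attached, suspended vehicle and AT-0174 groups, and ENST00000578089, with no annotated coding sequence, made up 39%, 26.1% and 32.9%, without a test.

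*KLF9* (ENSG00000119138, chromosome 9, 70384604 to 70414657) encodes a transcription factor of the Krüppel-like family. It was at 10.2, 9.55 and 9.94 CPM in attached cells, 11.8, 11.4 and 12.2 CPM in suspension with vehicle, and 11.3, 10.2 and 10.8 CPM with AT-0174. All suspended vehicle libraries exceeded every attached and every AT-0174 library. The rise with suspension was 0.25 on the log2 scale (SE = 0.0649, adjusted p = 0.0167), and it did not pass without attached replicate 2 (0.23, adjusted p = 0.0542), without suspended vehicle replicate 3 (0.23, adjusted p = 0.0598) or in counts rebuilt from TPM (0.27, adjusted p = 0.15). The difference of AT-0174 from vehicle was -0.13 (SE = 0.0636, adjusted p = 0.573).

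*SGK1* (ENSG00000118515, chromosome 6, 134169248 to 134318112), a kinase that regulates ion transport and is induced early by glucocorticoids, was near the limit of detection with 8 to 24 counts per library. Attached cells gave 0.209, 0.360 and 0.618 CPM, suspended cells with vehicle 0.284, 0.295 and 0.182 CPM, and AT-0174 0.207, 0.287 and 0.272 CPM. Groups overlapped, and the interval of the log2 difference with suspension reached from -1.47 to 0.18, so a difference was not detectable at this depth.

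*ZBTB16* (chromosome 11, 114059041 to 114256765), a zinc finger transcription factor strongly induced by glucocorticoids in many tissues, had 2, 1 and 2 counts in attached cells, 3, 3 and 8 in suspension with vehicle and 2, 5 and 7 with AT-0174. *ALOX15B* (chromosome 17, 8039034 to 8049134), a lipoxygenase that acts on arachidonic acid, had 0, 2 and 0 counts in attached cells, 7, 1 and 0 in suspension with vehicle and 5, 3 and 0 with AT-0174. Counts this low allow no comparison between groups.

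*AZGP1* (ENSG00000160862, chromosome 7, 99966720 to 99976042) was at 346, 338 and 363 CPM in attached cells, 384, 338 and 366 CPM in suspension with vehicle and 303, 291 and 305 CPM with AT-0174. The attached and suspended vehicle groups overlapped (log2 difference 0.05, SE = 0.0448, adjusted p = 0.438). All 3 AT-0174 libraries lay below the other 6.

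*PIP* (ENSG00000159763, chromosome 7, 143132077 to 143139739) encodes the prolactin-induced protein, also called GCDFP-15, a secreted marker of apocrine cells that androgens induce. Its level was 2.98, 2.57 and 2.42 CPM in attached cells, 3.77, 4.85 and 4.44 CPM in suspension with vehicle and 4.91, 4.63 and 4.10 CPM with AT-0174, from 93 to 237 counts per library. Every suspended library exceeded every attached library. The rise with suspension was 0.71 on the log2 scale (SE = 0.134, adjusted p = 0.00357, edgeR's quasi-likelihood test with Benjamini–Hochberg adjustment), and it passed in all 17 alternatives, with values from 0.63 to 0.81. AT-0174 differed from vehicle by 0.06 (SE = 0.127, adjusted p = 0.941), with an interval of -0.19 to 0.31.

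**Figure D3:**
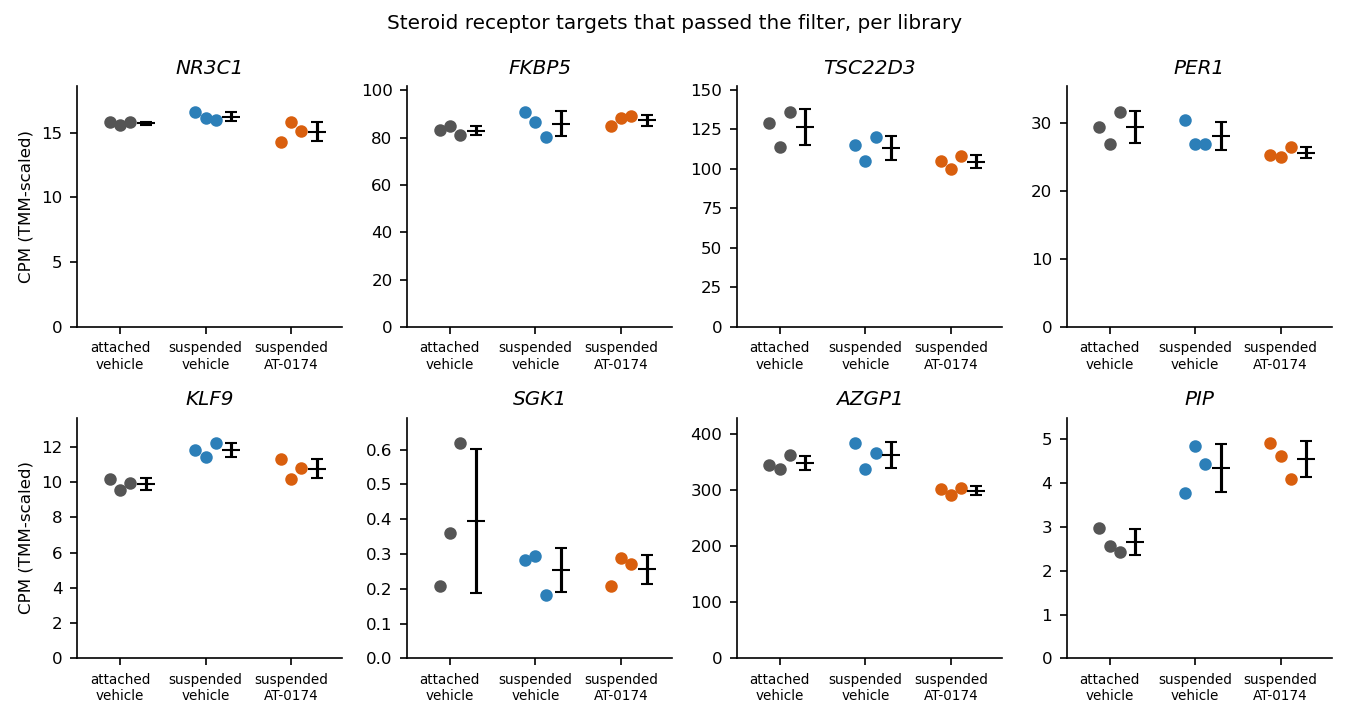
CPM of the 8 tested genes in each library, by group, with each axis starting at 0. Points are libraries, and the bars to their right give the mean and SD of 3 libraries. *PIP* is higher in all 6 suspended libraries than in the attached ones, and *AZGP1* is lowest in the 3 AT-0174 libraries.

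The second comparison asked what the TDO2 and IDO1 inhibitor changed in suspended cells. *AZGP1* was the single member that passed, at 300 ± 7.82 CPM (SD, n = 3) with AT-0174 and 362 ± 23.1 CPM (SD, n = 3) with vehicle. That is 0.826-fold, or -0.27 on the log2 scale (SE = 0.0448, adjusted p = 0.0111). Among all genes 0.779% passed (0.522% higher, 0.258% lower), and *AZGP1* ranked 60 by p. The call did not hold without suspended vehicle replicate 3 (-0.27, adjusted p = 0.0571), without AT-0174 replicate 2 (-0.25, adjusted p = 0.0591) or in counts rebuilt from TPM (-0.27, adjusted p = 0.144).

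Reads of *AZGP1* may be shared with its pseudogene *AZGP1P1*, which had 94 to 143 counts or 0.737% to 1.02% of those of *AZGP1*. With both summed, the difference of AT-0174 from vehicle was -0.27 (adjusted p = 0.0113).

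*NR3C1*, *PER1*, *KLF9* and *AZGP1* were lower in every AT-0174 library than in every suspended vehicle library, which was the case for 7.66% of all genes (15.4% in either direction, 7.75% higher), but the first 3 did not pass the test. The median log2 difference of the 8 genes was -0.115, beside 0.001 for all genes. *FKBP5*, *SGK1* and *PIP* had differences of 0.01 to 0.06.

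The third comparison, of AT-0174-treated suspended cells with attached cells, uses the same libraries as the other 2 and combines drug and suspension. Of the 8 genes, 4 passed, beside 24% of all genes (12.2% higher, 11.8% lower), and the same 4 did not overlap between groups, beside 39.5% of all genes (20.4% higher, 19.1% lower). *PIP* rose 1.71-fold (log2 difference 0.77, SE = 0.133, adjusted p = 0.00161). *AZGP1* fell to 0.858-fold (-0.22, SE = 0.0449, adjusted p = 0.00409) and *TSC22D3* to 0.824-fold (-0.28, SE = 0.0631, adjusted p = 0.00721).

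*PER1* fell to 0.874-fold (-0.19, SE = 0.0647, adjusted p = 0.0463). The *PER1* call was lost in 9 of 17 alternatives, with adjusted p from 0.0118 to 0.19 over all of them. It was lost with limma-voom, without attached replicate 1 or 3, without suspended vehicle replicate 2 or 3 and without any AT-0174 replicate. The highest p came without attached replicate 3 (-0.14, adjusted p = 0.19). It was also lost in counts rebuilt from TPM, which gave -0.42 (adjusted p = 0.0647). The call of *TSC22D3* was lost in 1 of 17. The remaining 4 genes did not pass, with *FKBP5* at 0.07 (SE = 0.0446, adjusted p = 0.251) and *KLF9* at 0.12 (SE = 0.065, adjusted p = 0.212). The median of the 8 genes was -0.13, beside -0.002 for all genes.

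**Figure D4:**
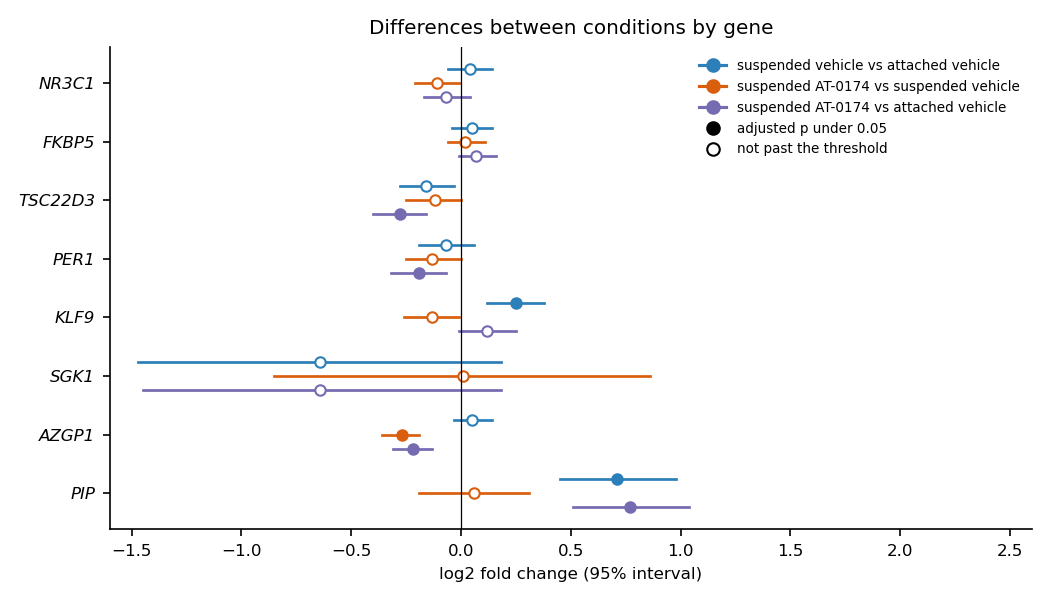
Log2 differences of the 8 tested genes with 95% intervals in the 3 comparisons, where a positive value means higher in the first-named condition. *PIP* lies at 0.71 and 0.77 in the 2 comparisons with attached cells and *AZGP1* at -0.27 for AT-0174 against vehicle, while *SGK1* has by far the widest intervals.

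Across the 9 libraries the members did not move as 1 group. Pearson's r of log2 CPM was 0.85 between *TSC22D3* and *PER1*, 0.80 between *PER1* and *AZGP1* and 0.71 between *TSC22D3* and *AZGP1*, and within groups these were 0.70, 0.80 and 0.78. *FKBP5* went the other way from *TSC22D3* (r = -0.64, within groups -0.42). *PIP* and *KLF9* had r = 0.70 over all libraries but 0.13 within groups. These values describe 9 libraries that share group differences and are given without a test.

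Among the genes most like *FKBP5* in log2 CPM over the 9 libraries, of 12521 searched, were *ARHGAP19* (r = 0.948) and *EOGT* (r = 0.914). Those most like *PIP* were *SQOR* (r = 0.992), *LFNG* (r = 0.986) and *SLC35F5* (r = 0.984). All were picked for their high r among 12521 genes in only 9 libraries that share group differences. A high r can arise in such a search without any link between the genes, and none was tested.

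Transcripts of the chaperones that hold steroid receptors were measured alongside. Of 16 receptor chaperones, 3 rose and 2 fell with suspension, beside 10.4% of all genes that rose and 10.8% that fell, and the median log2 difference was 0.045. *FKBP4*, the cochaperone that acts opposite to *FKBP5*, rose by 0.16 (adjusted p = 0.0023, lost in 1 of 17 alternatives, counts rebuilt from TPM, with 0.12 and adjusted p = 0.057), *PPP5C* by 0.10 (adjusted p = 0.0328, lost in 9 of 17 alternatives, as without any attached replicate or suspended vehicle replicate 2 or 3, with adjusted p up to 0.924), and *HSPA1A*, which may share reads with a near-identical copy, fell by 0.15 (adjusted p = 0.0252, lost in 4 of 17 with adjusted p up to 0.0904, as without attached replicate 1 or 3 or suspended vehicle replicate 2). With AT-0174 none of the 16 passed (1 at an unadjusted p under 0.05), beside 0.779% of all genes.

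Of 13 tested genes of steroid metabolism, 2 rose and 0 fell with suspension, beside the same 10.4% and 10.8% of all genes. *SRD5A3*, of the steroid reductase family, rose by 0.24 (adjusted p = 0.00154), and *AKR1C2*, which reduces dihydrotestosterone, rose by 0.47 (adjusted p = 0.0246). *AKR1C2* also rose with AT-0174 against vehicle by 0.71 (SE = 0.123, adjusted p = 0.0168), as the 1 gene of this list that passed, beside 0.779% of all genes. However, its reads may be shared with near-identical family members, and each of its 2 calls was lost in 5 of 17 alternatives. Adjusted p reached 0.103 for suspension (as without replicate 1 or 3 of either vehicle group) and 0.128 for AT-0174 (as without suspended vehicle replicate 2 or 3 or AT-0174 replicate 1 or 3). *HSD11B2*, which inactivates cortisol, had 462 to 588 counts per library, whereas *HSD11B1*, which regenerates it, had 0 to 1. These 2 genes were singled out after their values were seen. Of 20 tested coregulators, 4 rose and 1 fell with suspension, beside 21.2% of all genes called in either direction. With AT-0174, 0 passed (2 at an unadjusted p under 0.05), beside 0.779% of all genes. *FOXA1*, a pioneer transcription factor, rose by 0.26 (adjusted p = 0.000114), *NRIP1* by 0.35 (adjusted p = 0.000369) and *CTBP1* by 0.12 (adjusted p = 0.0269, lost in 5 of 17 with adjusted p up to 0.0932, as without attached replicate 1 or 2 or suspended vehicle replicate 2 or 3).

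Of 34 other tested genes known to be induced by glucocorticoids, 6 rose and 4 fell with suspension, beside 10.4% and 10.8% of all genes, with a median log2 difference of -0.041 beside 0 for all genes. *DUSP1*, a phosphatase that inactivates MAP kinases, rose from 5.27 to 14.4 CPM (1.45, SE = 0.159, adjusted p = 0.000121). *BCL6* fell by 0.72 (adjusted p = 0.00546) and *FOXO3* rose by 0.18 (adjusted p = 0.00816). With AT-0174, *ERRFI1* alone passed (0.18, adjusted p = 0.0388), beside 0.779% of all genes. Its call was lost in 8 of 17 alternatives with adjusted p up to 0.341, as without any single suspended library or attached replicate 2.

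Of 31 tested genes known to be induced by androgens, 10 rose and 4 fell with suspension, beside 10.4% and 10.8% of all genes, with a median of 0.052. *EAF2* rose by 0.45 (adjusted p = 0.00175), *SORD* by 0.19 (adjusted p = 0.00479), and *TMPRSS2* fell by 0.40 (adjusted p = 0.00473). With AT-0174 the 1 gene to pass, beside 0.779% of all genes, was *ELL2*, which rose by 0.25 (adjusted p = 0.00453, lost in 1 of 17 alternatives, counts rebuilt from TPM, with adjusted p = 0.185). *KLK2* and *KLK3*, the classical androgen targets of prostate, had 0 to 1 counts in every library and were singled out after their values were seen.

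Of 17 tested apocrine markers, 7 rose with suspension and 0 fell, beside 10.4% and 10.8% of all genes, with a median of 0.163. The lists share genes, so these counts are not independent of those above. *PIP* is also a member, and *FOXA1* is also counted among the coregulators that rose. Besides *PIP* and *FOXA1*, the secretory factor *XBP1* rose by 0.37 (SE = 0.0337, adjusted p = 2.6e-05). *AZGP1* was the single marker of this list called lower with AT-0174, beside 0.258% of all genes. *COL1A1*, from the list of immune and stromal markers, fell with suspension by 0.28 (adjusted p = 0.00182), a call lost in counts rebuilt from TPM (-0.24, adjusted p = 0.0669).

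**Figure D5:**
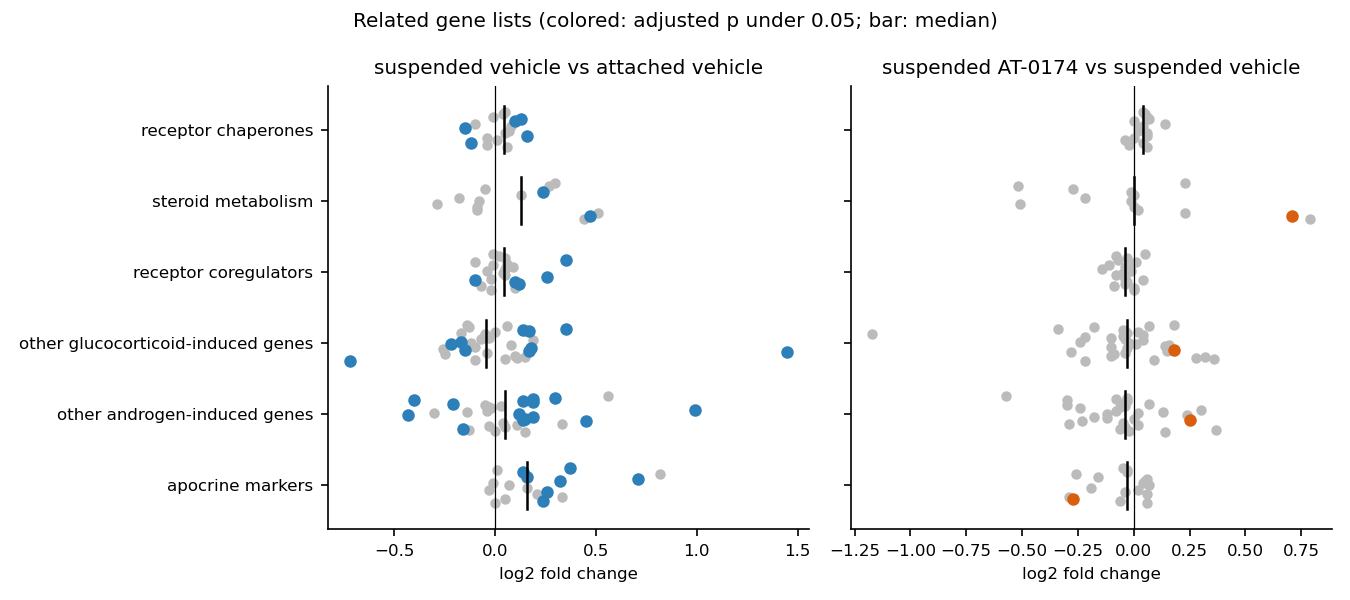
Log2 differences of the tested genes of each related list, for suspended against attached cells and for AT-0174 against vehicle, with called genes marked. The apocrine markers have a median of 0.163 with suspension. Few genes of any list are called with AT-0174, where 0.779% of all tested genes were called, beside 21.2% with suspension.

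Reads of a gene and of an antisense neighbor cannot be told apart unless strand is used, and the counting's strand setting is not given in the sources used here. Annotated genes on the other strand overlap *NR3C1*, *FKBP5*, *TSC22D3*, *SGK1*, *ZBTB16* and *AZGP1*. Genes on the same strand, which strand cannot separate, overlap *NR3C1*, *FKBP5*, *PER1* and *SGK1*. Among them are a protein-coding gene for *PER1* and the pseudogene *KRT8P42* for *SGK1*.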

How the data were processed

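Processed values of 9 MDA-MB-453 libraries were analysed. Per the paper, the authors obtained estimated counts from Salmon 1.10.1 after Cutadapt 3.4 in Trim Galore 0.6.7 and STAR 2.7.9a on GRCh38, and were deposited as sums per gene without normalization. The TPM values, deposited per transcript by the authors from Salmon, are scaled for length and depth. The kit is named differently in the labels and the paper.

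Estimated counts were rounded. After filterByExpr, TMM factors were applied, and a quasi-likelihood model of all 9 libraries was fitted in edgeR 4.0.16 (R 4.3.3) with group as the only term. Adjusted p-values are Benjamini–Hochberg over 15528 genes, and genes under 0.05 were called. Intervals are the estimate ± 1.96 SE. They make no allowance for the few degrees of freedom of the test and so are somewhat too narrow. The scripts were tested on simulated data. Alternatives were DESeq2 1.42.0, its size factors, limma-voom (limma 3.58.1), 2 other filters, only the 6 libraries compared, a replicate block, counts rebuilt from TPM, and each library left out. Summing *AZGP1* with its pseudogene was added after seeing the data.

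The 10 genes and the related lists were chosen with earlier results of these data known. Text names all members, up to 3 called genes of each list by p in the suspension and AT-0174 comparisons, and 3 correlates each of *FKBP5* and *PIP* among genes with a mean of at least 50 counts. Some genes that these rules name are not reported here. Positions are from GENCODE, sequences from RefSeq.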

Additional observations from a re-analysis of the deposited data

How the results depend on the processing

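Directions and calls of the tested genes were recomputed under 17 alternatives, except 16 for *SGK1*, which the filter of at least 10 counts in every library removed, and 18 for *AZGP1*, with its pseudogene added. Counts rebuilt from TPM lowered the number of genes called to 1396 from 3297 for suspension, to 31 from 121 for AT-0174 against vehicle and to 1802 from 3724 for AT-0174 against attached cells. Members called there were 1 instead of 2, 0 instead of 1 (2 at an unadjusted p under 0.05, while edgeR, DESeq2 and limma-voom on the deposited counts each called 1) and 2 instead of 4, and genes of the related lists 16 instead of 37, 0 instead of 3 (19 at an unadjusted p under 0.05, with 8 called by DESeq2 and 3 by limma-voom) and 22 instead of 41. For AT-0174 against vehicle, DESeq2 called 239 genes and 8 of the lists, leaving out the low-count filter gave 499 and 14, and the replicate block gave 8 of the lists. The causes were not tested.

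Leaving out each library in turn gave 1935 to 3260 genes, 1 to 2 members and 21 to 36 list genes for suspension, with 1935 genes without attached replicate 3. For AT-0174 against vehicle it gave 63 to 128 genes, 0 to 1 members and 1 to 3 list genes, and for AT-0174 against attached cells 2239 to 3680 genes, 3 to 4 members and 21 to 37 list genes. The direction reversed for *SGK1* with suspension in counts rebuilt from TPM (0.05), and for *SGK1* under AT-0174 against vehicle with the replicate block (-0.0027), with TPM (-0.25) and without suspended vehicle replicate 3 (-0.19), AT-0174 replicate 2 (-0.08) or AT-0174 replicate 3 (-0.05). For *FKBP5* it reversed without suspended vehicle replicate 3 (-0.03), and for *PIP* under AT-0174 without suspended vehicle replicate 1 (-0.03), none of these being called. Leave-one-out values under AT-0174 reached 0.06 for *FKBP5*, 0.14 for *SGK1* and 0.14 for *PIP*.

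The labels give all groups replicate numbers 1 to 3. Deviations of same-numbered libraries had r of -0.065 to 0.053, beside -0.086 to 0.089 for other pairs, so the numbers were not taken as pairing. With the replicate block, *TSC22D3* passed for suspension (-0.16, adjusted p = 0.0121). Depth limited *SGK1*, *ZBTB16* and *ALOX15B*.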
